A study of Bos taurus with 8 samples.

Results

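LHX2 and 9 other genes of the LIM homeobox family (LHX1, LHX3, LHX4, LHX5, LHX6, LHX8, LHX9, ISL1 and LMX1B) were followed along their whole length in MIRA-Seq data of cattle fibroblasts. Every 3 kb window that the deposited files label with one of these 10 gene symbols was taken, with 2 windows on each side. This gave 100 gene windows and 40 flanking windows, or 140 of the 902984 windows of the genome, and 10 of the 26107 gene names in the files. LHX2 was put forward because its first window differed between the breeds, so the breed values below are a description and carry no p-value.

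MIRA-Seq captures sonicated DNA that carries methylated CpG sites with the proteins MBD2b and MBD3L1, so a window with more reads held more captured methylated DNA. The 8 libraries came from untreated dermal fibroblast cultures at passage 5, grown from shoulder skin of 4 Holstein and 4 Angus heifers of the same age, with 1 culture and 1 library per animal. Holstein is a dairy breed and Angus a beef breed. These are DNA libraries, so the fibroblast identity of the cultures could not be checked against marker genes.

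LIM homeobox genes encode transcription factors with a pair of LIM domains, which bind cofactors such as LDB1, and a homeodomain, which binds DNA. They are known for specifying neurons, pituitary cells and limb and eye structures in the embryo, and LHX2 is also known for maintaining hair follicle stem cells. Promoters of such developmental regulators typically lie in CpG islands, and DNA methylation there is usually low in cells of many kinds. The family falls into pairs of close relatives, among them LHX1 with LHX5, LHX2 with LHX9, LHX3 with LHX4, and LHX6 with LHX8.

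Between 18691111 and 35525554 reads per library fell in windows, and 3 reads in a window, the smallest count told from 0, corresponded to 0.0844 to 0.161 CPM, the count scaled to the total of reads in windows. These floors cover counting error only, since PCR copies are not independent molecules. Holstein 1 and Angus 3 stood apart, with TMM scaling factors of 0.817 and 0.677 against 0.952 to 1.22 in the other 6 libraries. Holstein 1 or Angus 3 had the lowest plain CPM of the 8 in 40 of the 54 windows tested below, and fold changes below use the TMM factors.

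With windows pooled, the LIM homeobox genes had a higher median level per window than the genome as a whole. Gene by gene, they lay on both sides of the middle of all genes, as given below. The median over the 100 gene windows was 0.8285 CPM, against 0.339 CPM for all windows with a gene name and 0.280 CPM for all windows. A mean of at least 1 CPM over the 8 cultures was reached by 40 of the 100 windows (40%), against 17.7% of windows with a gene name. LMX1B, which acts in dorsal limb, nail and kidney development, held 24 of those 40 windows and 39 of the 100. Without LMX1B, 16 of 61 windows (26.2%) reached 1 CPM and the median was 0.451 CPM.

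Among the 10 genes the mean level per window over the 8 cultures was highest in LHX6, a factor of cortical interneurons, and LMX1B. LHX6 had 1.36 ± 0.502 CPM per window (SD, n = 8 cultures) and LMX1B 1.35 ± 0.237, at percentiles 78.3 and 78.2 of all genes. LHX2 followed at 0.970 ± 0.290 CPM per window and LHX4, a pituitary and motor neuron factor, at 0.879 ± 0.164. LHX9, which acts in gonad development, had 0.606 ± 0.125 CPM per window. LHX1, a factor of head and kidney formation, had 0.452 ± 0.143, and LHX3, a pituitary factor, had 0.449 ± 0.133. ISL1, a factor of motor neurons and pancreatic islets, had 0.405 ± 0.0991 CPM per window, and LHX5, a forebrain factor, had 0.358 ± 0.0794. LHX8, a factor of forebrain cholinergic neurons, was lowest at 0.251 ± 0.0780 CPM per window, at percentile 23.0 of all genes.

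Neighbours in this order were often not separated. LHX4 lay above LHX9 in 8 of 8 cultures, by 0.273 ± 0.104 CPM per window. LMX1B lay above LHX2, LHX9 above LHX1 and LHX5 above LHX8 in 7 of 8 cultures each. LHX6 lay above LMX1B in 4 of 8 cultures, LHX1 above LHX3 in 4, and LHX2 above LHX4, LHX3 above ISL1 and ISL1 above LHX5 in 5 each, with mean differences smaller than their SD. Some orders differed by breed. LHX6 and LMX1B had 1.70 ± 0.397 and 1.40 ± 0.294 CPM per window in Holstein (SD, n = 4). In Angus they had 1.01 ± 0.336 and 1.30 ± 0.194. LHX2 and LHX4 had 0.841 ± 0.236 and 0.956 ± 0.170 in Holstein, and 1.10 ± 0.311 and 0.802 ± 0.136 in Angus. The level of LHX2 includes the window through which it was chosen. All windows have the same length, so these levels are per length, but they also depend on CpG density, which was not measured.

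**Figure D1:**
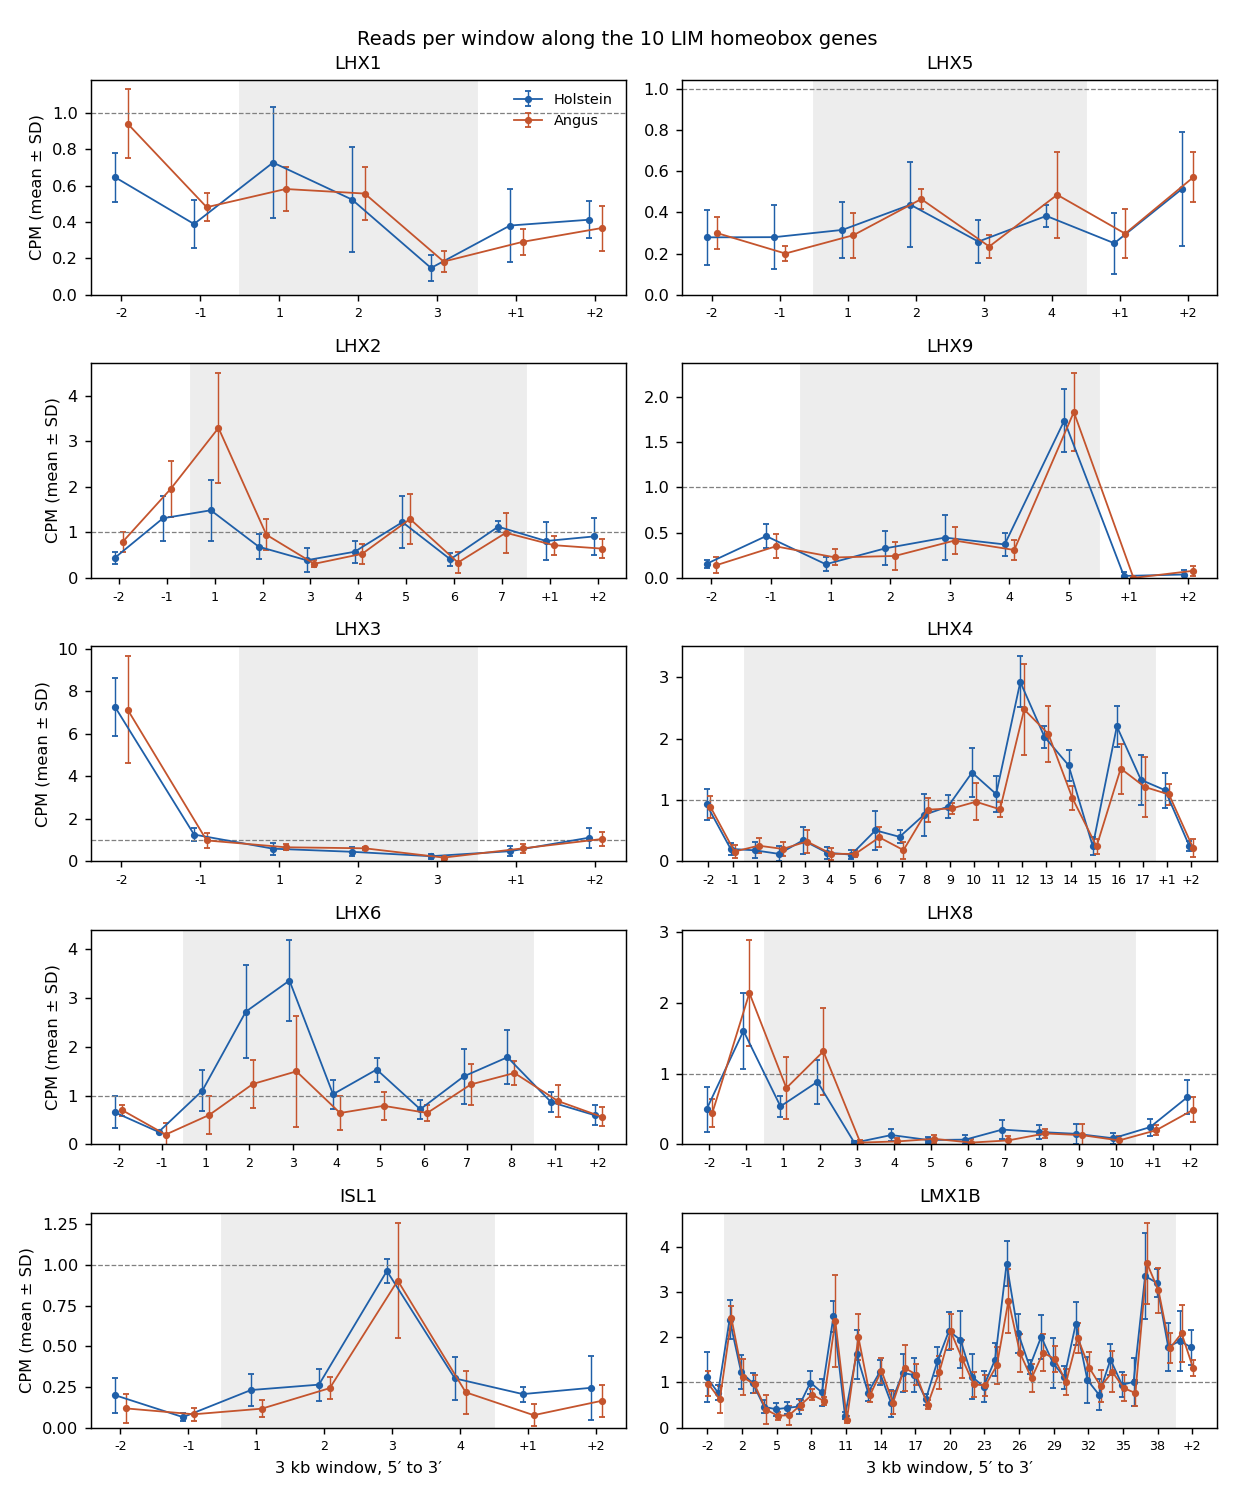
Mean CPM of each 3 kb window (vertical axis) along the 10 LIM homeobox genes, in the direction of transcription and with 2 windows on each side (horizontal axis, window number); points are breed means and bars SDs over 4 Holstein or 4 Angus cultures. Shaded windows carry the gene name and the dashed line marks 1 CPM; LMX1B lies above that line over much of its length, while LHX8 has a mean over the 8 cultures of 0.166 CPM or less from its window 3 on.

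LHX2 lies on the plus strand of chromosome 11 (UMD v3.1, 95126785 to 95147784) and spans 7 windows, of which 3 carry a coding exon. Its first window (95126785 to 95129784, labelled with coding exon 2) held 20, 31, 65 and 40 reads in the Holstein libraries, in order of animal number, and 71, 83, 81 and 95 reads in the Angus libraries. As CPM the same Holstein cultures had 1.01, 1.34, 2.46 and 1.13, and those of Angus 2.48, 2.89, 2.72 and 5.08. The breeds did not overlap, but Holstein 3 lay just under Angus 1, and Angus 4 lay far above the other Angus cultures.

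The means of this window were 1.48 ± 0.664 CPM in Holstein and 3.29 ± 1.21 CPM in Angus (SD, n = 4), and the log2 fold change of Holstein over Angus was -1.27 (SE 0.23). With TMM scaling the Holstein cultures had 1.24, 1.20, 2.26 and 0.926 CPM and the Angus cultures 2.60, 2.64, 4.02 and 4.35. With Holstein 1 and Angus 3 left out the log2 fold change was -1.15. The highest coverage of any base in the window was 6, 8, 13 and 12 reads in the Holstein libraries and 15, 16, 20 and 15 in those of Angus, so that no single position held most of the reads.

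Angus cultures also had higher means in both windows upstream of LHX2, while the breeds overlapped in the other windows of the gene. The window just upstream (95123785 to 95126784) carries coding exon 1 of LOC100848819, a gene on the minus strand. It held 0.607, 1.77, 1.36 and 1.49 CPM in the Holstein cultures by animal number, and 2.16, 2.05, 1.07 and 2.51 CPM in those of Angus. The breeds overlapped in plain CPM through Angus 3 and did not overlap with TMM scaling, and the log2 fold change was -0.68 (SE 0.19). The next window upstream, which did not pass the CPM filter, held 0.253 to 0.530 CPM in Holstein and 0.571 to 1.08 CPM in Angus. Inside the gene, window 5 had a log2 fold change of -0.22 (SE 0.25) and window 7 of 0.07 (SE 0.23), each within 1 SE of 0, and neither the plain CPM nor the TMM-scaled values separated the breeds in windows 2 to 7.

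**Figure D2:**
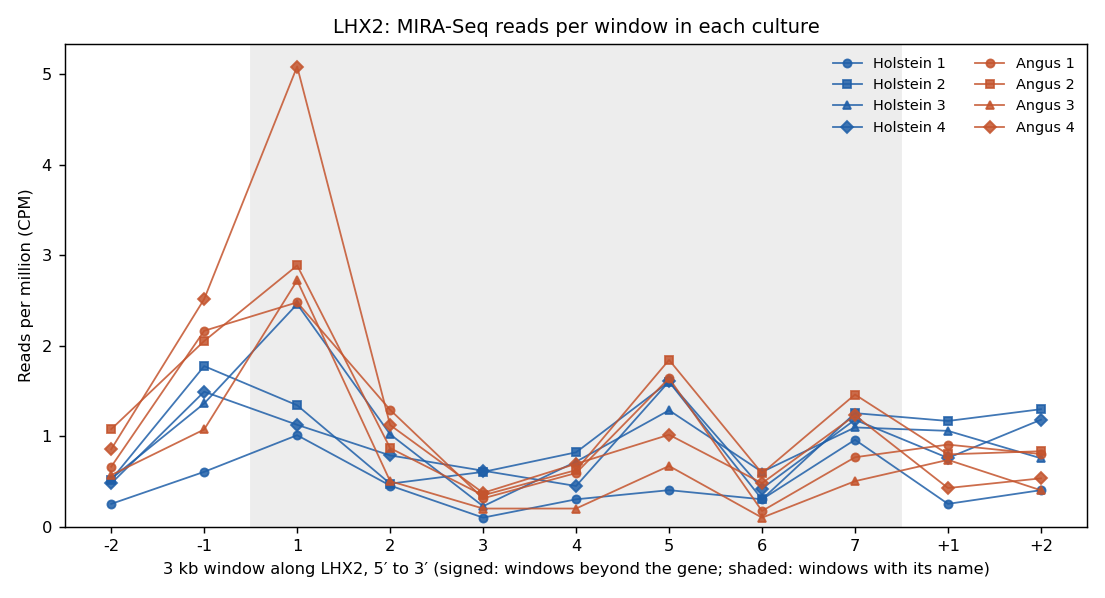
CPM of each culture (vertical axis) in the 7 windows of LHX2 and 2 windows on each side (horizontal axis, window number in the direction of transcription), with a line joining the points of each Holstein and Angus culture and shading over windows with the gene name. In gene window 1 the Angus cultures lie at 2.48 to 5.08 CPM and the Holstein cultures at 1.01 to 2.46, while the breeds overlap in gene windows 2 to 7.

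Of the 140 windows, 54 passed the filter of at least 1 CPM in at least 4 cultures, 43 of them gene windows and 11 flanking windows, and 57 gene windows were not tested. LHX1, LHX3, LHX5 and ISL1 had no gene window that passed. The first window of LHX2 was the 1 window called higher in Angus at FDR < 0.1 and at least 2-fold in edgeR's likelihood-ratio test, and 0 were called higher in Holstein. Of all 115360 windows tested, 0.192% were called higher in Angus, 0.039% higher in Holstein and 0.231% in either direction. Because LHX2 was chosen from this contrast, nothing is read from the count. The study's own list of differing 3 kb regions, made at the same FDR and fold thresholds, does not include the first window of LHX2. That list is shorter than the 267 windows called here, and the reason was not tested.

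The fold changes of the 54 windows lay on both sides of 0, with 24 above and 30 below and a median log2 fold change of -0.04. Their median size was 0.19, and without the first window of LHX2 they ranged from -0.68 to 0.99. In plain CPM the breeds did not overlap in 1 window with Holstein higher, against 1.11% of all tested windows, and in 1 with Angus higher, against 0.208%. With TMM scaling this held for 1 window with Holstein higher, against 1.38% of all tested windows, and for 2 with Angus higher, against 1.25%. The windows with Angus higher were the first window of LHX2 and, with TMM scaling, also the window just upstream of it. Because LHX2 was chosen through its first window, nothing is read from the counts with Angus higher.

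**Figure D3:**
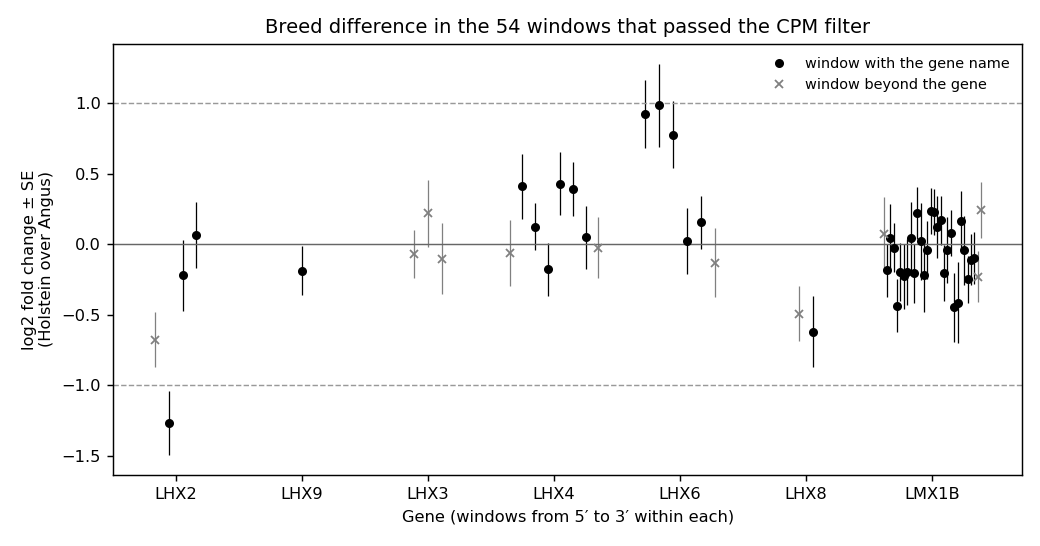
Log2 fold change of Holstein over Angus (vertical axis, bars are standard errors) for the 54 tested windows, ordered 5′ to 3′ within each gene (horizontal axis), with dots for gene windows, crosses for flanking windows and dashed lines at a 2-fold difference. The first window of LHX2 lies lowest at -1.27, windows 2, 3 and 5 of LHX6 lie highest at 0.92, 0.99 and 0.78, and the windows of LMX1B lie between -0.45 and 0.24.

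LHX6, also on chromosome 11 (minus strand, 93067085 to 93091084, 8 windows), had higher mean levels in Holstein than in Angus cultures over the 5′ part of the gene. Its window 3 (93082085 to 93085084) held 3.24, 4.41, 2.38 and 3.38 CPM in the Holstein cultures by animal number, and 0.733, 3.09, 1.51 and 0.642 CPM in those of Angus. Angus 2 lay within the Holstein range, and Angus 1 and Angus 4 were lowest, the latter with 12 reads. The means were 3.35 ± 0.833 and 1.495 ± 1.14 CPM and the log2 fold change was 0.99 (SE 0.30).

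Window 2 of LHX6 (93085085 to 93088084, coding exon 4) held 1.82, 3.51, 1.97 and 3.57 CPM in the Holstein cultures and 0.698, 1.77, 1.51 and 0.963 CPM in the Angus cultures. The breeds did not overlap in plain CPM, with Holstein 1 just above Angus 2, but overlapped with TMM scaling, and the log2 fold change was 0.92 (SE 0.24). Window 5 (93076085 to 93079084, coding exon 8) had a log2 fold change of 0.78 (SE 0.24), from 1.53 ± 0.246 CPM in Holstein and 0.790 ± 0.285 CPM in Angus. In each of windows 1 to 5 the lowest of the 8 cultures was Angus 1 or Angus 4 and the highest was a Holstein culture. Windows 7 and 8, at the 3′ end, had log2 fold changes of 0.02 (SE 0.24) and 0.16 (SE 0.19).

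Summed over its 8 windows, LHX6 held 10.6, 16.5, 11.2 and 16.2 CPM in the Holstein cultures by animal number, and 7.09, 12.0, 7.49 and 5.83 CPM in those of Angus. Angus 2 again lay above the lower Holstein cultures. No LHX6 window passed both thresholds in the TMM-scaled fit by breed alone. Windows of LHX6 passed them with total counts in place of TMM scaling (2 windows), with the animal number as a block (1 window), without Holstein 3 (1 window), without Angus 2 (2 windows), without Angus 3 (2 windows) and with Holstein 1 and Angus 3 both left out (2 windows). None passed with the quasi-likelihood test, DESeq2's size factors or Wald test, or FDR < 0.05. The same held with no CPM filter, with 1 CPM required in all 8 samples and with unplaced scaffolds left out. It also held without Holstein 1, 2 or 4, or without Angus 1 or 4. The log2 fold change of window 3 ranged from 0.71 without Angus 4 to 1.46 without Angus 2.

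**Figure D4:**
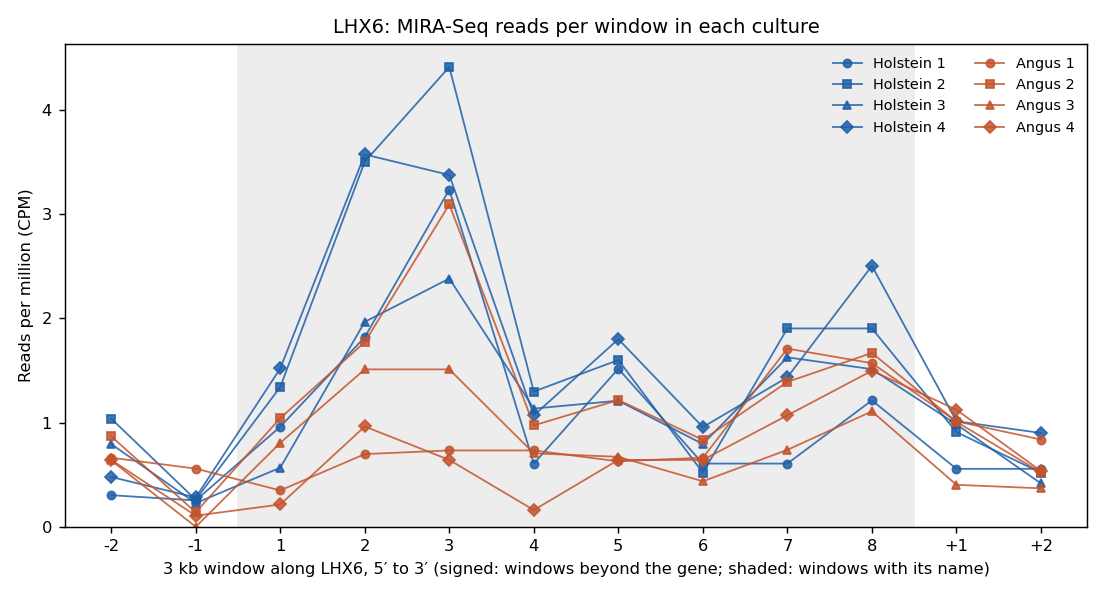
CPM of each culture (vertical axis) in the 8 windows of LHX6 and 2 windows on each side (horizontal axis, window number in the direction of transcription), with a line joining the points of each Holstein and Angus culture and shading over windows with the gene name. In gene window 3 the Holstein cultures lie at 2.38 to 4.41 CPM and the Angus cultures at 0.642 to 3.09, with Angus 2 inside the Holstein range, and in gene windows 6 to 8 the breeds overlap.

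Among the other members with a tested gene window, LHX8 had the largest log2 fold change in size. Window 2 of LHX8 (chromosome 3, 69912510 to 69915509), a relative of LHX6, had 0.886 ± 0.309 CPM in Holstein and 1.32 ± 0.613 in Angus. Its log2 fold change was -0.62 (SE 0.25), and the breeds overlapped. The 6 tested windows of LHX4 had log2 fold changes from -0.18 to 0.43. The last window of LHX9, its one tested window, had a log2 fold change of -0.19 (SE 0.17). In LMX1B, 10 of 27 tested windows lay above 0 and 17 below, between -0.45 and 0.24.

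Whether the members carry methylated DNA at the start of the gene or farther in was asked next, within cultures, for genes of at least 3 windows. The first window with the gene name was compared with the rest of the gene by edgeR's quasi-likelihood test, with Benjamini-Hochberg adjustment over 16479 genes. A gene was called at an adjusted p under 0.05 and at least 2-fold. This position contrast was not used to choose the genes, but LHX2 was chosen through its first window, so its ratio is a description. The first named window need not hold the transcription start, since the files give 1 gene name per window. The first windows of LHX2 and ISL1 are labelled with exon 2, that of LHX6 with exon 3 and that of LHX8 with no coding exon.

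LHX4, LHX9 and ISL1, 3 of the 10 members, held fewer reads in the first window than in the rest of the gene, as did 37.1% of all genes tested. LHX4 (chromosome 16, 62865781 to 62916780) held 0.215 ± 0.125 CPM in its first window and 0.920 ± 0.173 CPM per window in the rest (SD, n = 8). The log2 ratio was -2.09 (SE 0.20, adjusted p = 1.31e-12 in edgeR's quasi-likelihood test), and the first window was lower in 8 of 8 cultures. It held 2, 1, 6 and 12 reads in the Holstein cultures and 6, 4, 7 and 8 in the Angus cultures. Windows 1 to 7 of LHX4 stayed between 0.113 and 0.446 CPM, and the level then rose to 2.70 ± 0.610 CPM in window 12, at percentile 96.9 of all windows.

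LHX9 (chromosome 16, 78787181 to 78802180) held 0.189 ± 0.0873 CPM in its first window against 0.710 ± 0.141 in the rest, a log2 ratio of -1.88 (SE 0.22, adjusted p = 2.20e-10, edgeR). Most of its reads lay in its last window, which carries coding exon 4 and held 1.79 ± 0.367 CPM. ISL1 (chromosome 20, minus strand, 27745118 to 27757117) held 0.174 ± 0.0952 CPM in its first window against 0.483 ± 0.115 in the rest, a log2 ratio of -1.39 (SE 0.25, adjusted p = 3.38e-06, edgeR). The reads of ISL1 peaked in window 3, which carries coding exon 4, at 0.934 ± 0.239 CPM. In LHX9 and ISL1 too the first window was lower in 8 of 8 cultures. Both first windows lay close to the 3-read floors of 0.0844 to 0.161 CPM, so the size of their ratios rests on few reads.

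LHX2 and LHX8 held more reads in the first window than in the rest of the gene, as did 10.7% of all genes tested. LHX2 held 2.39 ± 1.32 CPM in its first window, at percentile 93.6 of 25917 first windows, and 0.734 ± 0.217 CPM per window in the rest. The log2 ratio was 1.63 (SE 0.17), and the first window was higher in 8 of 8 cultures. Since LHX2 was chosen through this window, no p-value is given and nothing is read from its place among the genes called higher. By breed the log2 ratio was 0.99 ± 0.53 in Holstein and 2.19 ± 0.67 in Angus cultures (SD, n = 4), so that the Holstein mean lay under the 2-fold minimum, which restates the breed difference of that window.

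LHX8 (chromosome 3, minus strand, 69888510 to 69918509) held 0.668 ± 0.330 CPM in its first window and 0.205 ± 0.0633 in the rest, a log2 ratio of 1.65 (SE 0.20, adjusted p = 8.49e-10, edgeR). Its reads lay in windows 1 and 2 and in the window just upstream, which held 1.87 ± 0.669 CPM. Among the windows of the gene, window 2 was highest, at 1.10 ± 0.505 CPM, so the first window was not the peak. Windows 3 to 10 held 0.0248 to 0.166 CPM, and in 7 of its 10 windows at least 4 cultures had fewer than 3 reads, so that levels there were not told from 0.

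The other 5 members stayed under the 2-fold minimum. The first window was higher than the rest by a log2 ratio of 0.91 (SE 0.20) in LHX1, 0.86 (SE 0.11) in LMX1B and 0.77 (SE 0.21) in LHX3, and lower by -0.76 (SE 0.14) in LHX6, all with an adjusted p under 0.05 in edgeR's test. At that threshold alone 5 members were higher and 4 lower in the first window, against 22.3% and 54.4% of all genes tested. Without Angus 2, LHX1 reached 1.01 and was called. LHX5 had a log2 ratio of -0.26 (SE 0.23, adjusted p = 0.291, edgeR). The median over the 10 members was 0.26, against -0.57 over all genes tested. LHX2, chosen through its first window, is in this median and among the 5 higher members. Without LHX2 the middle value was that of LHX5, -0.26, so nothing is read from the sign of the median.

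The fitted log2 ratios of LHX2 and LHX9, LHX3 and LHX4, and LHX6 and LHX8 had opposite signs within each pair of relatives. The log2 ratio over the 8 cultures ranged from 0.43 to 2.90 in LHX2 and from -2.56 to -1.06 in LHX9. It ranged from -0.12 to 1.92 in LHX3 and from -4.03 to -1.07 in LHX4, and from 0.52 to 2.64 in LHX8 and from -1.74 to -0.22 in LHX6. The ranges of LHX1 (0.40 to 1.65) and LHX5 (-1.34 to 0.50) overlapped, and LHX5 was not told from 0. The other pairs had the same sign, with -1.39 (SE 0.25) in ISL1 and -0.64 (SE 0.16) in its relative ISL2, and 0.86 (SE 0.11) in LMX1B and 0.40 (SE 0.17) in LMX1A. This grouping by relatives was made after the values were seen and was not tested.

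**Figure D5:**
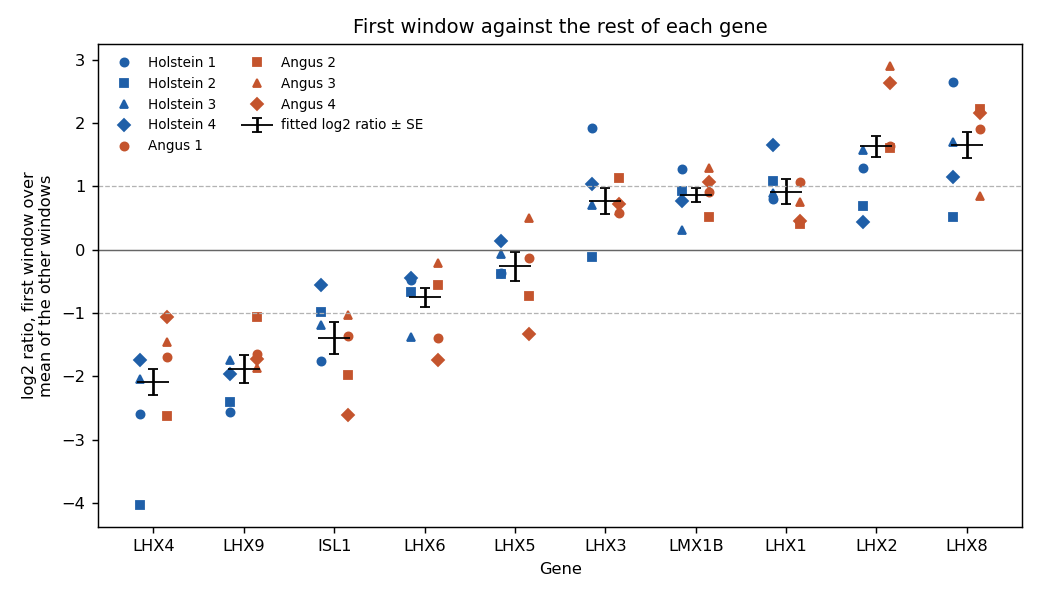
Log2 ratio of the first window over the mean of the other windows (vertical axis) in each of the 8 cultures for the 10 LIM homeobox genes (horizontal axis), with the fitted log2 ratio and its standard error as black bars and dashed lines at a 2-fold difference. LHX4, LHX9, ISL1 and LHX6 lie below 0 in every culture, and LHX1, LHX2, LHX8 and LMX1B lie above 0 in every culture.

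Windows that carry a coding exon were compared with the other windows of the same gene in 7 members, since in LHX1, LHX3 and ISL1 every window carries one. Called higher were 28.9% of the 12892 genes tested, and 5.77% were called lower, but 0 of the 7 members passed both thresholds in edgeR's quasi-likelihood test or in limma or DESeq2, while 5 had an unadjusted p under 0.05. The log2 ratio was 0.97 (SE 0.18) in LHX9, 0.90 (SE 0.06) in LMX1B, 0.70 (SE 0.21) in LHX5 and 0.43 (SE 0.08) in LHX4. It was -0.63 (SE 0.09) in LHX6, in which the windows without a coding exon held more reads. At an adjusted p under 0.05 alone 4 of the 7 were higher and 1 was lower, against 58.5% and 22.2% of all genes tested. LHX2 had 0.13 (SE 0.15) and LHX8 0.02 (SE 0.16, adjusted p = 0.934, edgeR). LHX9 passed the 2-fold minimum without Holstein 3 (1.01), without Holstein 4 (1.05) and without Angus 1 (1.03).

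The windows of the family with the most reads lay in LMX1B (chromosome 11, 97364785 to 97481784). Window 37, which carries coding exon 8, held from 2.07 CPM in Holstein 1 to 4.52 CPM in Angus 2, with a mean of 3.50 ± 0.864 at percentile 98.0 of all windows. Window 25 held 3.22 ± 0.714 CPM. The first window of LMX1B, which carries coding exon 1, held 2.41 ± 0.334 CPM, at percentile 93.7 of first windows, with all 8 cultures between 1.85 and 2.81 CPM. It was close in mean to the first window of LHX2, but its cultures of both breeds overlapped and its log2 fold change was -0.19 (SE 0.19).

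Partners and relatives of the family outside the member list comprised 12 genes. They were the further LIM homeobox genes ISL2 and LMX1A, the cofactors LDB1 and LDB2 with the LDB-binding proteins SSBP2, SSBP3 and SSBP4, the LIM-only proteins LMO1 to LMO4, which also bind LDB1, and RLIM, a ubiquitin ligase for the cofactors. Of their 440 windows 87 were tested between the breeds and 0 were called in edgeR's likelihood-ratio test, against 0.231% of all windows tested. The log2 fold changes ranged from -0.53 in LDB2 to 0.54 in SSBP3. The first window was compared with the rest in 10 of these genes. It was lower in 4, with log2 ratios of -3.17 (SE 0.23) in SSBP3, -2.19 (SE 0.20) in LMO2, -1.23 (SE 0.27) in SSBP2 and -1.12 (SE 0.29) in LMO4, and higher in 0. Of all genes tested 37.1% were called lower and 10.7% higher, and LMO4 was no longer called without Holstein 1, at -0.97.

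Windows with a coding exon were called higher in 3 of 9 of these genes, with log2 ratios of 1.23 (SE 0.26) in LMO4, 1.09 (SE 0.07) in LMO1 and 1.06 (SE 0.08) in LMX1A, and lower in 0, against 28.9% and 5.77% of all genes tested. RLIM is named at 2 places on the X chromosome and was left out of both comparisons within genes.

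The windows of named genes whose log2 level followed the first window of LHX2 most closely over the 8 cultures were in LOC527711 (Pearson's r = 0.995), PLXNA2 (r = 0.984), EVX1 (r = 0.980), KIAA1328 (r = 0.978) and ANK1 (r = 0.978). They were taken from 66772 windows compared, of which 76 reached an r of 0.9, and the 8 cultures share their breed, library and depth between windows. This is a description of likeness over 8 points.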

How the data were processed

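MIRA-Seq libraries of 4 Holstein and 4 Angus cultures were grouped by their sample labels. The authors aligned reads to UMD v3.1 with NextGENe 2.3.4 and deposited raw read counts, without normalization, in consecutive 3 kb windows, with CASAVA 1.7 named in the submitters' processing notes. The deposited files also hold the coverage of each window, an unscaled signal, which was used only for the highest coverage in LHX2. The handling of duplicate and multiply matching reads is not given in the sources used here. Counts depend on CpG density, pull-down efficiency and copy number, and no input library was used.

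CPM used the total over windows, which held 56.2% to 62.9% of matched reads. Breeds were compared in R 4.3.3 with edgeR 4.0.16 (TMM, likelihood-ratio test, windows of at least 1 CPM in at least 4 samples). Within genes, counts of first or coding-exon windows and of the other windows were compared by edgeR's quasi-likelihood test with a term for each sample, for genes with at least 80 reads. Log2 ratios by culture added 0.5 reads. The alternatives used limma 3.58.1, DESeq2 1.42.0, other scaling, filters and call rules, a replicate block and the removal of each library. The procedures were tested on simulated counts.

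The members and lists were chosen with earlier results of these data known. Named windows were the tested window with the largest breed difference in each gene, the first windows and the highest windows. The windows of LHX2 and LHX6 and the relatives compared in pairs were named after their values were seen. Sequences were not used here, since the reference table at hand is of another build.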

Additional observations from a re-analysis of the deposited data

Results flagged for a closer look

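A culture that stood far from the other 3 of its breed was found in 2 of 60 groups of 4 cultures (30 windows, CPM). In the first window of LHX2, Angus 4 held 5.08 CPM (95 reads) against 2.48 to 2.89 CPM in the other Angus cultures, and its distance to the nearest culture was 0.844 of the range of the group. With TMM scaling Angus 3 held 4.02 and Angus 4 held 4.35 CPM, so that Angus 4 no longer stood alone. In the window upstream of LHX3, which carries the name of QSOX2, Holstein 2 held 1.69 CPM (39 reads) against 1.07 to 1.16 CPM in the other Holstein cultures, a distance of 0.849 of the range. Both distances exceed Dixon's 95% critical value for 4 samples, a level at which chance alone flags about 1 in 20 groups.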

How the results depend on the processing

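The first window of LHX2 was called higher in Angus under each alternative for the breeds except DESeq2's Wald test, which called 0 member windows higher in Angus (log2 fold change -1.28, SE 0.35). The estimate ranged from -1.62 (without Holstein 3) to -1.06 (without Holstein 4). In the TMM-scaled fit by breed alone 0 member windows were called higher in Holstein. There were 2 with total counts only, 1 with no fold change minimum, 1 with the replicate block, 2 with Holstein 1 and Angus 3 left out (an alternative chosen after seeing the data), and 0 to 2 when each library was left out in turn. Window 3 of LHX6 (0.99, not called) ranged from 0.71 without Angus 4 to 1.46 without Angus 2, with 0.75 without Angus 1. It was called at 1.13 with total counts, 1.12 with the block, 1.46 without Angus 2, 1.16 without Angus 3 and 1.04 without Holstein 1 and Angus 3. Animal numbers did not pair the cultures (correlation of same-numbered cultures -0.216 to 0.109). With total counts only, the median log2 fold change of all windows shifted to 0.14. Over all windows, 267 calls became 141 with the quasi-likelihood test and with DESeq2, 163 with at least 1 CPM in all 8 samples, 153 with unplaced scaffolds left out, 905 with no filter, 642 without Holstein 1 and Angus 3, and 145 to 564 with 1 library left out. With total counts 83 of 392 calls were higher in Holstein.

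Without a fold minimum, first windows were called higher in 5 members, LHX2 among them, and coding-exon windows higher in 4 and lower in 1. Leaving out 1 library gave 0 to 1 members with higher coding-exon windows. The coding-exon ratio of LHX8 was 0.02 and moved to -0.012 without the replicate block of samples, to between -0.11 and 0.086 with 1 library left out (-0.045 without Holstein 4, -0.11 without Angus 3) and to -0.079 without Holstein 1 and Angus 3, and the cause was not tested. The calls for the first windows of LHX8, LHX4, LHX9 and ISL1 held under each alternative run. Windows under 3 reads limit LHX8 most.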

Other observations

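Windows that did not pass the CPM filter still carried values. The window 2 places upstream of LHX1 held 0.455, 0.649, 0.719 and 0.760 CPM in the Holstein cultures by animal number, and 1.01, 1.11, 0.672 and 0.963 CPM in those of Angus, and the breeds overlapped through Angus 3. The window just downstream of LHX9 held 2 or fewer reads in each culture, beside a last gene window with 1.79 ± 0.367 CPM.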
